A study of Mus musculus with 6 samples.

Results

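The mir-34 family of the mouse was described over 4 conditions, in the small RNA of extracellular vesicles (EVs) from C2C12 cells and of 2 primary bone cell preparations. The members are the 3 entries named mir-34a, mir-34b and mir-34c among 1006 miRBase precursor entries, chosen by name and not by their values. The miR-34 miRNAs are transcribed under the control of p53, the tumor suppressor that responds to DNA damage and other stress. They repress mRNAs of cell cycle and survival genes, among them Cdk6, Ccnd1, Bcl2 and Sirt1, and thereby slow proliferation. In bone, miR-34c is known to restrain osteoblasts through Notch signaling genes, and miR-34a is known to restrain osteoclast formation through Tgif2.

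Myo-EVs (2 libraries) are vesicles pelleted by ultracentrifugation from the medium of C2C12 cells, a mouse myoblast line. FFSS-Myo-EVs (2 libraries) came from C2C12 cells exposed to fluid flow shear stress (FFSS) on an orbital shaker for 48 hr. A culture time of 48 hr is given for the Myo-EV libraries as well. OB (1 library) are primary osteoblasts from mouse calvariae and BM (1 library) are primary bone marrow cells, both from male mice. The labels give a strain background of 81.25% C57BL/6J with 18.75% of 129/SvJ for all 6 libraries, including those of the cell line. They also give an age of 8 to 10 weeks for the OB and BM mice, whereas the methods describe neonatal calvariae for osteoblasts. All EVs came from the same cell line, which was grown in medium with serum depleted of its own vesicles, and each library was made from 90 ng of total RNA. The labels also describe a culture with or without 1,25-dihydroxyvitamin D3 or dexamethasone in the same words for all 6 libraries, and no library is labelled with either agent. Nothing in the labels says whether libraries of 1 group came from separate cultures, so the p-values measure only the spread between these libraries, which may be technical.

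The values are the deposited counts per precursor entry and the normalized expression values made from them. One entry covers both mature miRNAs, 5p and 3p, of its hairpin. The total was between 2414132 and 3029524 counts in the EV libraries, 5181296 in OB and 6092460 in BM. The labelled cell types were checked against marker miRNAs. The summed normalized expression value of 7 blood cell miRNAs, led by mir-223 and mir-142a, was 21210 in BM against 319.3 in OB, and the EV libraries had 170.6 to 260.1. The sum of 6 mesenchymal entries (the mir-199 entries, mir-214, mir-143 and mir-145a) was 536436 in OB and 22199 in BM, and the EV libraries had 335112 to 437712. The copies mir-199a-1 and mir-199a-2 had near-equal counts (158182 and 159522 in OB), so this sum may hold the same reads more than once. In EVs this sum was mostly mir-143 (274482 to 372549). mir-143 and mir-145a were higher in every EV library than in OB. The mir-199 entries and mir-214 were lower in every EV library, with mir-199a-1 at 13.0% to 18.7% of OB. The muscle miRNA mir-206 was between 1968.5 and 2610.0 in EVs, 91.7 in OB and 7.9 in BM, and the sum of 6 muscle entries was 2052.9 to 2641.9, 118.9 and 71.9. The mir-1a entries, which mark differentiated muscle, went the other way, with 0 counts of mir-1a-1 and 0 to 5 counts of mir-1a-2 in the EV libraries and normalized values of 30.6 and 31.4 in BM. A count of 0 allows up to 3 counts, a normalized value of 2.99 to 3.59 in these libraries.

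A miRNA recognizes mRNAs mainly through its seed, bases 2 to 8 from its 5′ end. The sequences are shown because miR-34a-5p and miR-34b-5p share 1 seed, whose letters the mir-34c hairpin also holds. The 3p seed of miR-34a differs from that of miR-34b and miR-34c. Sequences are from RefSeq (build GRCm38.p6), in which all 3 members had a hairpin and 5 mature sequences were listed. The capitals mark the seed in mature sequences, and the 7 bases GGCAGUG in the mir-34c hairpin.
mmu-miR-34a-5p: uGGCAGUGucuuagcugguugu
mmu-miR-34b-5p: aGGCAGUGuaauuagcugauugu
mir-34c hairpin: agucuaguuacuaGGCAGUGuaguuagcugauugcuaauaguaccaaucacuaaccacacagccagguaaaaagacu
mmu-miR-34a-3p: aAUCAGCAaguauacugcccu
mmu-miR-34b-3p: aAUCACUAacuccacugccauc
mmu-miR-34c-3p: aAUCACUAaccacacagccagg
mmu-miR-449a-5p: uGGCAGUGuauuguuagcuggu
mmu-miR-449c-5p: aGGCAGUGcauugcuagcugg

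The seed GGCAGUG was held by 4 of 1738 mature sequences in RefSeq (0.23%), those of miR-34a-5p, miR-34b-5p, miR-449a-5p and miR-449c-5p. RefSeq as used here listed no mature miR-34c-5p and no sequence of mir-449b, so neither is in this count. In the 3p forms, miR-34b-3p and miR-34c-3p share the seed AUCACUA, and miR-34a-3p has AUCAGCA. Placed without gaps on the mir-34c hairpin, at its bases 13 to 35, miR-34b-5p was identical in 21 of 23 bases, with the substitutions A11G and U23C (position in miR-34b-5p from its 5′ end, miR-34b-5p base first). On the mir-34a hairpin, miR-34b-5p matched in 12 of 23 bases. miR-34a-5p also holds the stretch uuagcug of miR-34b-5p, and a placement without gaps could not align both this stretch and the seed. Reads of the 5p forms of mir-34b and mir-34c thus differ at few positions. In the 3p form they differ more, since miR-34b-3p was identical to the mir-34c hairpin in 17 of 22 bases. The number of mismatches allowed in the matching is not given in the sources used here. The share of reads that could have passed between these 2 entries was not tested.

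The members lie at 2 loci. In GENCODE M21 (GRCm38), Mir34a is at chr4:150068454-150068555 on the plus strand, and its last 17 bases overlap the exon of the uncharacterized gene Gm37795 on the same strand. Mir34b at chr9:51103562-51103645 and Mir34c at chr9:51103034-51103110 are both on the minus strand, with 451 bases between them, and are known to be cut from a shared primary transcript. Both lie in an intron of Btg4, which is on the opposite strand. The start of the protein-coding gene 4833427G06Rik, on their own strand, is 955 bases beyond Mir34c.

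The family was found in all 4 conditions, but its makeup differed between BM and the rest. In OB and in all EV libraries mir-34c was the most abundant member, followed by mir-34b and mir-34a, whereas in BM mir-34a was the most abundant and mir-34b the least. The family took 0.854% and 1.04% of all counts in the Myo-EV libraries, 0.668% and 0.724% in the FFSS-Myo-EV libraries, 0.646% in OB and 0.0608% in BM. Of the family counts, mir-34c made up 85.6% and 87.1% in Myo-EVs, 83.1% and 82.3% in FFSS-Myo-EVs, 76.6% in OB (95% interval 76.1 to 77.0) and 12.3% in BM (11.3 to 13.4). The share of mir-34a was 84.6% in BM (83.4 to 85.8), 9.19% in OB (8.88 to 9.50) and between 4.77% and 5.95% in the EV libraries. These shares are taken within each library and do not depend on scaling between libraries. Intervals are exact Clopper-Pearson intervals. They describe counting error alone, since amplified reads that carry no molecular identifier are not independent molecules.

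**Figure D1:**
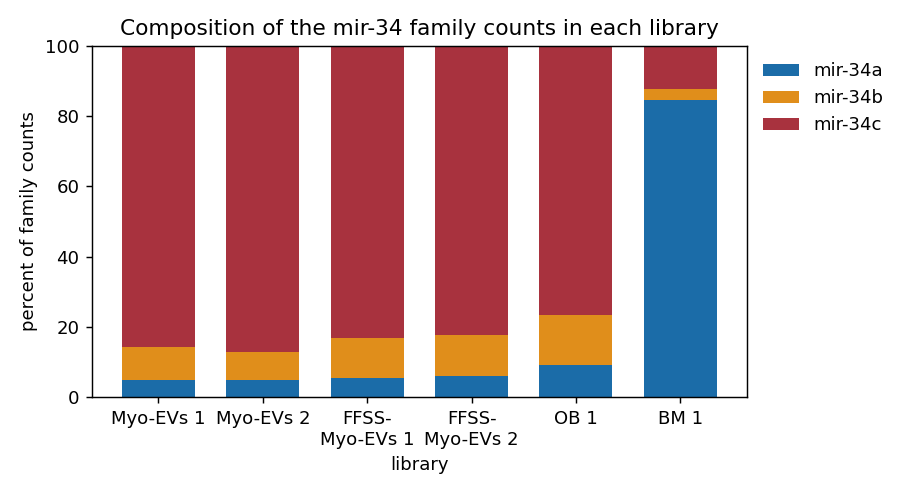
The stacked bars give the percent of mir-34 family counts (vertical axis, percent) taken by mir-34a, mir-34b and mir-34c in each of the 6 libraries. The bar of BM is mostly mir-34a (84.6%), and the other 5 bars are mostly mir-34c (76.6% to 87.1%).

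mir-34a is transcribed from its own locus on chromosome 4. It had a normalized expression value of 1184.5 and 1440.8 in the Myo-EV libraries, 1086.9 and 1268.1 in the FFSS-Myo-EV libraries, 1698.7 in OB (95% interval 1639 to 1760, 3076 counts) and 1244.0 in BM (1201 to 1288, 3132 counts). OB was thus the highest library, and on this scaling the value of BM lay between the lowest and the highest library of each EV group. As a share of all counts, mir-34a was 0.0514% in BM, above all 4 EV libraries (0.0360% to 0.0498%), and the ratio of Myo-EVs to BM was 1.06 on the authors' scaling and 0.884 on library totals. The order of the mean normalized values was OB, Myo-EVs (1312.7 ± 181.2, SD, n = 2), BM and FFSS-Myo-EVs (1177.5 ± 128.1, SD, n = 2), of which Myo-EVs, BM and FFSS-Myo-EVs were within the spread between EV libraries. The ratio of OB to BM was 1.37, and it was 1.15 after rescaling to library totals and 1.59 with median-of-ratios size factors. Among the 1006 entries, mir-34a ranked between 93 and 110 in every library.

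mir-34b, the first member of the pair on chromosome 9, had a value of 2350.0 and 2449.2 in the Myo-EV libraries, 2312.2 and 2510.7 in the FFSS-Myo-EV libraries, 2633.1 in OB (2559 to 2709, 4768 counts) and 44.9 in BM (37.0 to 54.0, 113 counts). OB and the 4 EV libraries were close together, and BM stood far below them. FFSS-Myo-EVs were 0.916 times OB and 53.7 times BM (44.7 to 65.2, counting error of BM), and OB was 58.6 times BM (48.7 to 71.3). In rank, mir-34b was between 73 and 86 in OB and EVs and 225 in BM.

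mir-34c, the second member of that pair, had a value of 21091.4 and 26314.2 in the Myo-EV libraries, 16754.1 and 17526.4 in the FFSS-Myo-EV libraries, 14155.8 in OB (13984 to 14330, 25633 counts) and 181.5 in BM (165.3 to 198.9, 457 counts). Both Myo-EV libraries were above both FFSS-Myo-EV libraries, these were above OB, and BM was far below. It was among the 20 most abundant entries of each EV library (ranks 15 to 20) and ranked 32 in OB and 154 in BM. FFSS-Myo-EVs were 94.4 times BM (86.2 to 103.7) and Myo-EVs 131 times BM (119 to 143). Myo-EVs were 1.67 times OB, and 1.36 times with median-of-ratios size factors. FFSS-Myo-EVs were 1.21 times OB on the authors' scaling, but 0.919 times OB with median-of-ratios size factors, so the order of these conditions depended on the scaling. OB was 78.0 times BM (71.1 to 85.7).

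**Figure D2:**
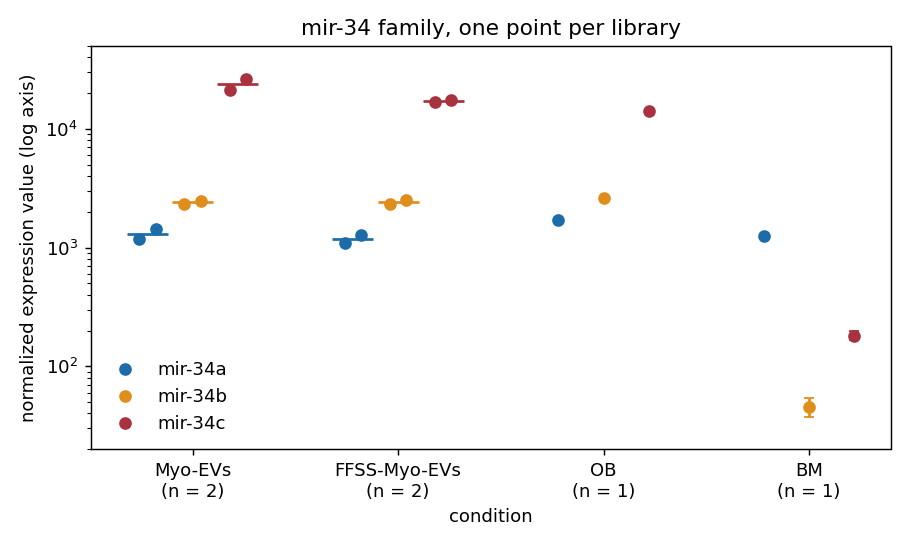
Each point is the normalized expression value (log axis) of mir-34a, mir-34b or mir-34c in 1 library, by condition, with horizontal lines at the means of 2 libraries and exact 95% counting intervals for OB and BM. The points of mir-34a lie between 1086.9 and 1698.7 in all conditions, whereas mir-34b and mir-34c drop to 44.9 and 181.5 in BM.

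A ratio of at least 10 was not particular to the pair on chromosome 9. Of 431 entries with a value of at least 10 in OB or BM, 21.1% were at least 10 times higher in OB than in BM, and mir-34b and mir-34c were among them. For Myo-EVs over BM this share was 20.9% and for FFSS-Myo-EVs over BM it was 21%. The mean was 1000 or more in FFSS-Myo-EVs for 114 entries, of which 11 had a ratio to BM at or above that of mir-34c and 16 at or above that of mir-34b, each count with the member itself, and the median ratio was 2.11. Against OB, 15.6% of entries were at least 10 times higher in FFSS-Myo-EVs, with 0 of the 3 members among them. For mir-34a, 80 of the 114 had a ratio to BM at or above its 0.947. OB and BM are 1 library each, so these ratios have no replicate check, and in such bulk samples fewer cells of a type and less RNA per cell cannot be told apart.

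The level in BM was set beside that of the mesenchymal markers, which osteoblasts share. In BM, mir-34b was at 1.71% and mir-34c at 1.28% of the OB level, while the summed mesenchymal markers were at 4.14%, with 0 of the 6 at a count of 0. Single markers were at 5.80% (mir-143), 5.39% (mir-145a), 2.81% (mir-214) and 2.31% (mir-199a-1) of OB, and mir-34a was at 73.2%. The marker with the lowest share was mir-199b, with a normalized value of 1408.4 in BM and 66862 in OB. The part of mesenchymal cells in the BM values of the family was not tested.

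mir-34b and mir-34c are made together, and their proportion was compared within each library. The counts of mir-34b per 100 of mir-34b and mir-34c together were 10.0 (95% interval 9.64 to 10.4) and 8.52 (8.17 to 8.88) in the Myo-EV libraries, 12.1 (11.7 to 12.6) and 12.5 (12.1 to 13.0) in the FFSS-Myo-EV libraries, 15.7 (15.3 to 16.1) in OB and 19.8 (16.6 to 23.3) in BM. The groups of EV libraries did not overlap, and OB and BM were above all of them. Among single entries, 60.5% of those tested did not overlap between the EV groups on normalized values. FFSS-Myo-EVs over Myo-EVs was 1.00 for mir-34b and 0.723 for mir-34c on the authors' scaling. The difference in this proportion is thus not separate from the lower mir-34c. For the EV groups, the two-sided exact permutation test of 2 against 2 libraries gave p = 0.333, the smallest it can give. The excess of mir-34c over mir-34b was thus between 6.98- and 10.7-fold in EVs, 5.38-fold in OB and 4.04-fold in BM.

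FFSS-Myo-EVs were compared with Myo-EVs to see whether shear stress on the muscle cells altered the content of the family in their vesicles. Only mir-34c was called, and it was lower in FFSS-Myo-EVs, from 23702.8 ± 3693.1 (SD, n = 2) to 17140.2 ± 546.1 (SD, n = 2). The test was edgeR's quasi-likelihood test after TMM scaling, run over 354 entries with a mean of at least 10 in the EV libraries and adjusted over all of them by the Benjamini-Hochberg method. It called 108 entries (30.5%), of which 65 (18.4% of those tested) were lower, so 1 of 3 members is near the background. With the authors' scaling the calls were 54 higher and 39 lower, against 43 higher and 65 lower after TMM scaling. The log2 difference of mir-34c was -0.59 (standard error 0.16, 95% interval -0.90 to -0.27, adjusted p = 0.00187 in edgeR). Standard errors, intervals and p-values of this fit used a spread shared over the tested entries, not each entry's own. On the normalized values, 1 of the 3 members did not overlap between the groups, against 60.5% of all entries tested in either direction and 23.7% with FFSS-Myo-EVs lower. After TMM scaling, the CPM values of mir-34c (counts per 1000000) were 7815 and 8996 for Myo-EVs against 5672 and 5524 for FFSS-Myo-EVs. On that scale mir-34a (438.9 and 492.6 against 367.9 and 399.7) and mir-34b (870.8 and 837.3 against 782.8 and 791.3) did not overlap either, and 32.5% of all entries were non-overlapping with FFSS-Myo-EVs lower. mir-34c was not called without the first or the second FFSS-Myo-EV library, with log2 fold changes of -0.61 and -0.54. Without the first Myo-EV library the log2 fold change was -0.68, and it was -0.38 without the second, the one highest in mir-34c. The call was kept without either Myo-EV library. Each such fit leaves a group with 1 library and takes the spread from the other group alone. These fits therefore cannot decide how far the call rests on a single library.

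The other members were not called. For mir-34a, the log2 fold change was -0.28 (standard error 0.13, 95% interval -0.53 to -0.03, adjusted p = 0.0796 in edgeR), and the normalized values of the groups overlapped. It was called without the first Myo-EV library (log2 fold change -0.36, adjusted p = 0.0181 in edgeR), and the log2 fold change was -0.09 without the second. For mir-34b, the mean was 2399.6 ± 70.1 (SD, n = 2) in Myo-EVs and 2411.5 ± 140.4 (SD, n = 2) in FFSS-Myo-EVs. Its log2 fold change after TMM scaling was -0.12 (standard error 0.13, 95% interval -0.36 to 0.13, adjusted p = 0.549 in edgeR) and was 0.0071 on the authors' scaling, so that its sign depended on the scaling. The median entry was 0.12 (log2) higher in FFSS-Myo-EVs relative to Myo-EVs by the authors' scaling than by TMM. On the authors' scaling, the ratio of FFSS-Myo-EVs to Myo-EVs was 0.897 for mir-34a, 1.00 for mir-34b and 0.723 for mir-34c.

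**Figure D3:**
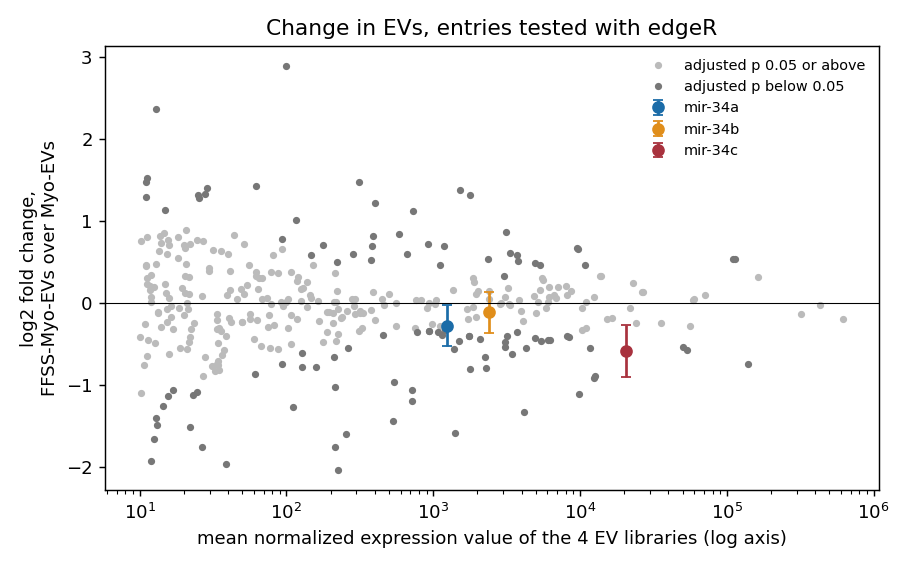
Each point is 1 of the 354 entries tested, with its mean normalized expression value in the 4 EV libraries (log axis) and its log2 fold change of FFSS-Myo-EVs over Myo-EVs after TMM scaling. The members are in color with 95% intervals, and mir-34c, at -0.59, has an interval that ends at -0.27.

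**Figure D4:**
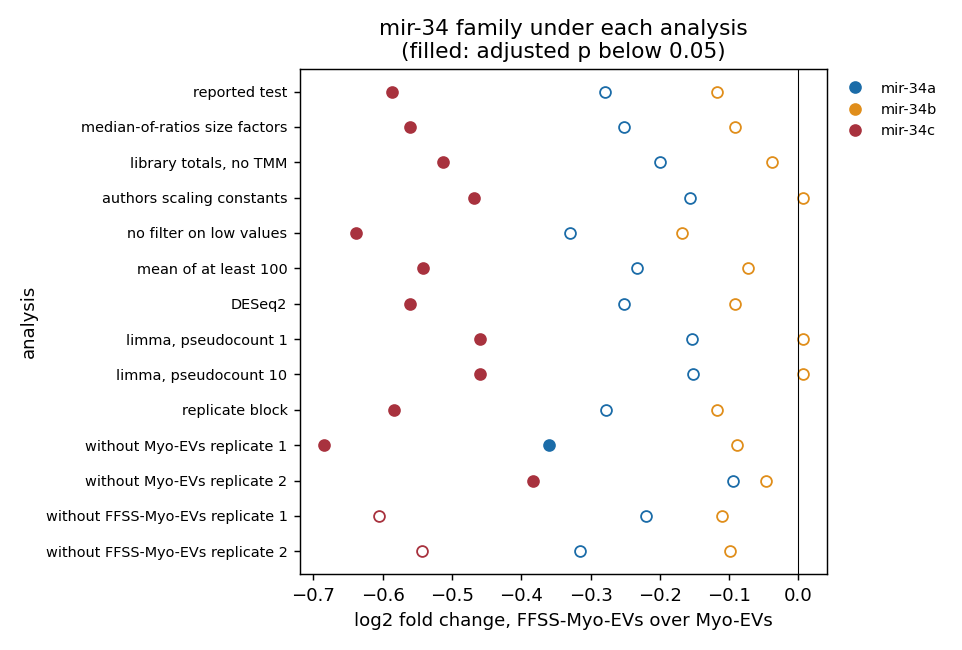
The log2 fold change of each member (horizontal axis) is given under the reported test and 13 alternative analyses, filled where the adjusted p was below 0.05. mir-34c lies between -0.68 and -0.38 in the alternatives and is open without either FFSS-Myo-EV library, and mir-34b crosses 0 on the authors' scaling.

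Some marker miRNAs of other sources moved between the same EV groups. The erythroid miRNA mir-451a had normalized values of 3.0 and 4.8 in Myo-EVs against 25.9 and 17.7 in FFSS-Myo-EVs, and the liver and serum miRNA mir-122 had 6.0 and 4.8 against 17.9 and 15.5. Both rose in edgeR's test (adjusted p = 6.79e-05 and 0.0132), mir-451a in 11 and mir-122 in 7 of 12 alternatives. The muscle miRNA mir-133b fell from 45.2 and 35.9 to 13.9 and 12.2 (adjusted p = 0.000139 in edgeR), while mir-206, the most abundant muscle marker, was not called. Over the whole lists, 1 of 3 tested blood cell markers rose, 3 of 4 tested muscle markers fell and 1 of 6 mesenchymal markers rose. Of all entries tested, 12.1% were called higher and 18.4% lower. mir-133a-1 and mir-133a-2 are copies of 1 miRNA, with only 4 to 19 counts in each EV library, so their calls are not separate. Of the muscle markers, mir-133a-1 was called in 8, mir-133a-2 in 11 and mir-133b in 12 of 12 alternatives. The sum over the 7 blood cell markers was 170.6 and 236.0 in Myo-EVs against 260.1 and 245.9 in FFSS-Myo-EVs, and over the 6 muscle markers it was 2052.9 and 2446.9 against 2641.9 and 2625.9. mir-223, which defines myeloid cells, was between 0 and 7.0 in the EV libraries and 9710.3 in BM. Their part in the change of mir-34c was not tested.

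The miRNAs that share the seed of the family through the mir-449 locus, which is known from multiciliated cells, were scarce. mir-449a had 16 and 17 counts in the Myo-EV libraries, 19 and 11 in the FFSS-Myo-EV libraries, 27 in OB and 2 in BM. mir-449b had between 0 and 2 counts, and mir-449c between 1 and 7. Together the mir-449 entries made up between 0.0792% and 0.138% of the counts of the 6 entries of both families. Nearly all of these counts were thus of the mir-34 entries. Since an entry covers both mature miRNAs of its hairpin, the share of reads that carry the seed itself was not tested. Only mir-449a was tested in EVs, and it was not called (log2 fold change -0.32, adjusted p = 0.646 in edgeR).

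Of 10 other entries known to be raised by p53, in transcription or in processing, 8 were tested in EVs, with 0 higher and 0 lower, and a median log2 fold change of -0.03 against -0.02 over all tested entries. Over all entries tested, 12.1% were called higher and 18.4% lower. At an unadjusted p under 0.05, 0 of the 8 passed, against 138 of all 354 entries. Of the 10 entries, 7 were higher in BM than in OB and 3 were lower. The share of all entries higher in BM was not computed, so this split is not read as a trait of the list. mir-143 and mir-145a, a pair transcribed together, were at 15620.4 and 893.7 in BM and at 269506 and 16583.5 in OB. By contrast, mir-16-1, which restrains Bcl2 and cyclins, was 3454.3 in BM and 1036.0 in OB, and mir-192 was 1155.8 and 650.0. The epithelial miRNA mir-200c was 219.2 in BM, 9.9 in OB and between 1.0 and 8.9 in EVs. The other entries higher in BM were mir-107, mir-15a, mir-194-1 and mir-194-2, and the third lower one was mir-215, at 5.6 against 10.5.

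Of 5 entries known to repress p53 mRNA, 4 were tested in EVs and 1, mir-25, was called lower, against 18.4% of all entries tested, so that the count is near the background. Its values were 3735.2 and 4302.1 in Myo-EVs against 3474.8 and 3332.5 in FFSS-Myo-EVs, with a log2 fold change of -0.36 ± 0.13 (SE) and an adjusted p of 0.0229 in edgeR's test. On the authors' scaling its adjusted p in edgeR was 0.214, and it was called in 7 of 13 alternatives. mir-125b-1, mir-125b-2 and mir-30d were not called, with log2 fold changes from -0.20 to 0.01. mir-504 had 138 counts in OB, 19 in BM and 0 in each EV library.

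The entries with a pattern most like that of each member over the 6 libraries were found by Pearson's correlation of log2 values among the 443 entries that averaged 10 or more. For mir-34c they were mir-145a (r = 0.997), mir-143 (r = 0.996) and mir-6944 (r = 0.995), and for mir-34b they were mir-143 (r = 0.994), mir-214 (r = 0.993) and mir-7224 (r = 0.992). The correlation between mir-34b and mir-34c was 0.992. Without the BM library it was -0.41 over 5 libraries, that of mir-34b with mir-143 was -0.15, that of mir-34c with mir-145a was 0.79, and that of mir-34b with mir-7224 was -0.995, so the likenesses of mir-34b to mir-34c, mir-143 and mir-7224 rested on the low values of BM. For mir-34a, which varied little, they were mir-9-3 (r = 0.989), mir-9-2 (r = 0.856) and mir-329 (r = 0.855). mir-9-3, which shares its mature miRNA with mir-9-2 so that reads cannot be told apart between them, had normalized values of only 7.0 to 26.0, and mir-329 had 3145.1 in OB and at most 1.2 elsewhere. The correlation of mir-34a was 0.18 with mir-34b and 0.13 with mir-34c, and without BM it was 0.90 and -0.18. These are descriptions over 4 conditions, in which the 4 EV libraries share a cell line.

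**Figure D5:**
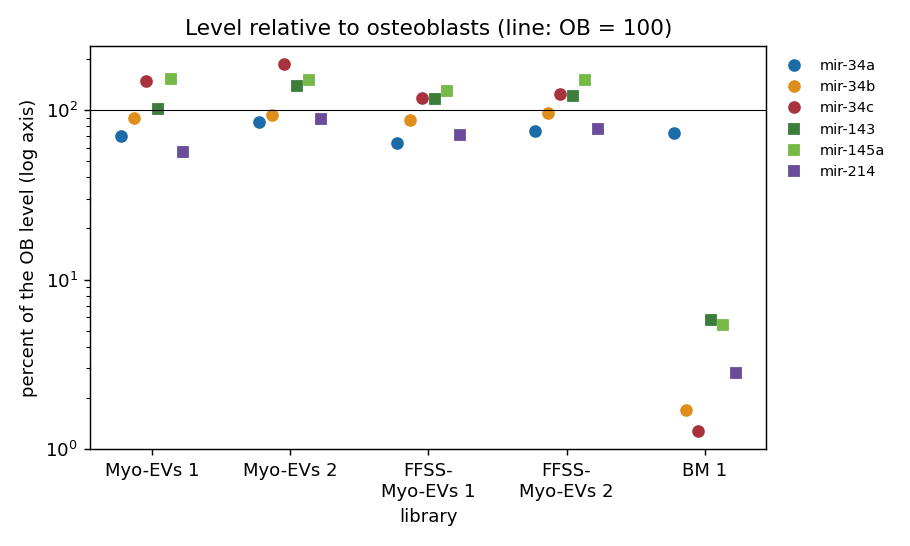
The level of the members (circles) and of mir-143, mir-145a and mir-214 (squares) is given in each EV library and in BM as a percent of the OB level (log axis). In BM, mir-34a is at 73.2% of OB, and mir-34c is the lowest at 1.28%, below mir-34b at 1.71% and mir-214 at 2.81%.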

How the data were processed

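Small RNA libraries were made with the NEBNext kit and sequenced by the study. The authors annotated grouped reads with miRBase, using CLC Genomics Workbench. Read counts per precursor entry were deposited without normalization. The deposited normalized expression values are a signal that the authors made by multiplying the counts with 1 constant per library, between 0.397 and 1.20. The labels name mm10. The miRBase release, the number of mismatches and the handling of reads with several matches are not given in the sources used here. Every value column was used.

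Levels and ratios used the normalized values. EVs were tested with edgeR 4.0.16 in R 4.3.3 (TMM factors, quasi-likelihood test, Benjamini-Hochberg adjustment, threshold 0.05) on EV counts (4 libraries), with 2 residual degrees of freedom. The prior degrees of freedom were estimated as infinite. The p-values and intervals of edgeR therefore rest on a spread shared over the tested entries, not on each entry's own. Alternatives tried were limma 3.58.1, DESeq2 1.42.0, other scalings and filters, a replicate block and each library left out. The fit was checked on simulated counts. Intervals came from scipy 1.17.1 in Python 3.11.15. Total counts of 2414132 to 6092460 set the precision of each value.

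The entries named are the members, the mir-449 entries, lists of miRNAs known to be raised by p53 or to repress it, cell type markers, and for each member the 3 most correlated entries. Members, lists and tests were chosen with earlier results of these data known.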

Additional observations from a re-analysis of the deposited data

How the results depend on the processing

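Of the 13 alternatives, the adjusted p of mir-34c was below 0.05 in 11, and it was lower in FFSS-Myo-EVs in all 13 (log2 fold change -0.684 to -0.383, adjusted p 2.19e-06 to 0.199 in edgeR, limma or DESeq2). The 2 exceptions, without the first (-0.606) or the second (-0.543) FFSS-Myo-EV library, leave that group with 1 library, assumed to vary like the others, and the number of entries called fell from 108 to 44 and 45. It was between 82 and 132 in the other alternatives. The top of that range came from the fit without the first Myo-EV library, which also leaves a group with 1 library. The same holds without the second, and the log2 fold change of mir-34c was -0.684 and -0.383 in these fits. A fit with 1 library in a group takes its spread from the other group alone, so the lost calls cannot be put down to group size. The split of the calls was 43 higher and 65 lower with TMM, 49 and 46 with library totals, 54 and 39 on the authors' scaling and 57 and 37 with limma and a pseudocount of 1. mir-34a was called in 1 of 13 alternatives, without the first Myo-EV library, and leaving out 1 EV library at a time put its log2 fold change between -0.360 and -0.0940 (over all 13, adjusted p 0.0181 to 0.542). mir-34b was called in 0 of 13 (adjusted p 0.561 to 0.991), and its log2 fold change was 0.00709 on the authors' scaling in edgeR, 0.00619 in limma with a pseudocount of 1 and 0.00617 with a pseudocount of 10.

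With the replicate number as a block, 110 entries were called, the log2 fold change was -0.278 for mir-34a, -0.118 for mir-34b and -0.583 for mir-34c, and no call of a member changed. The deviations of libraries with the same number correlated by 0.21 over the tested entries, and no source says that the number pairs libraries.

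Of 30 recomputed ratios between conditions, 15 stayed within the error, 13 moved beyond it and 2 crossed 1. The error was the SD of the 2 libraries for ratios with FFSS-Myo-EVs, and the counting interval for OB over BM. A ratio without 1 FFSS-Myo-EV library lies within that SD by construction, so its staying there shows nothing about stability. All 13 that moved came from a change of scaling. Rescaled to library totals, FFSS-Myo-EVs over BM was 0.770 for mir-34a, 43.7 for mir-34b and 76.7 for mir-34c, OB over BM was 1.155 for mir-34a and 66.0 for mir-34c, and FFSS-Myo-EVs over OB was 1.163 for mir-34c. With median-of-ratios size factors, FFSS-Myo-EVs over BM was 0.836, 47.5 and 83.6 for mir-34a, mir-34b and mir-34c, FFSS-Myo-EVs over OB was 0.525, 0.694 and 0.919, and OB over BM was 1.594 for mir-34a and 91.0 for mir-34c. When each FFSS-Myo-EV library was left out, FFSS-Myo-EVs over BM was 0.874 and 1.019 for mir-34a. The cause of these shifts was not tested. With 1 library each, OB and BM have no replicate error, and 113 counts of mir-34b in BM leave the ratio to OB between 48.7 and 71.3.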
